A study of Capra hircus with 6 samples.

Results

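Regions of differing chromatin accessibility were examined at 10 genes of the Notch pathway in goat mammary epithelial cells. The genes were 3 receptors (*NOTCH1*, *NOTCH2*, *NOTCH3*), 4 ligands (*JAG1*, *JAG2*, *DLL1*, *DLL4*), the DNA-binding effector *RBPJ* and 2 target genes (*HES1*, *HEY1*). A region belonged to a gene when its centre lay inside the gene or within 50000 bp of an end of it, whatever its p-value. This gave 42 regions of the 30714 that the table lists, and each of the 10 genes had at least 1.

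ATAC-seq uses the Tn5 transposase to cut and tag DNA that nucleosomes leave free. It was run on 3 libraries of mammary epithelial cells from the lactation period and 3 from the dry period, the milk-free rest before the next lactation. The deposited table compares the 6 libraries as 2 groups and holds no value per library, so neither the spread between libraries nor the depth of any library is known. A region is listed only where the authors' p was under 0.001, and it carries their fold change, p and false discovery rate (FDR, Benjamini-Hochberg). The labels give neither breed, age nor sex of the goats, nor whether each library came from its own animal, and the spread behind the authors' p-values may therefore be technical.

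Every fold change in the table is above 1, as a linear ratio of one group of libraries over the other. The direction is held only in the region names, which fall into set 1 (22884 regions) and set 2 (7830 regions). No label or header says which set is more accessible in lactation and which in the dry period, so directions are given by set. Sites that were equally open in both periods are not in such a table, and the epithelial label could not be checked against absent markers. In a sample of many cells, fewer cells of a type and less accessibility per cell cannot be told apart.

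Notch signalling runs between touching cells. A Jagged or Delta-like ligand on one cell binds a Notch receptor on its neighbour, the receptor is cut by an ADAM protease and then by gamma-secretase, and the freed intracellular part joins RBPJ and a Mastermind protein on DNA to switch on HES and HEY genes, which encode repressors. In the mouse mammary gland the pathway is known for its part in luminal cell fate. DLL4 and NOTCH1 are also well known in endothelial cells, where they shape vessel sprouting.

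Of the 42 regions, 10 had an FDR under 0.05 (23.8%, 95% Wilson interval 13.5% to 38.5%, for counting error only), against 27.8% of all listed regions. These 10 lay at 5 of the 10 genes, *HES1* (3), *NOTCH2* (2), *DLL4* (2), *DLL1* (2) and *JAG2* (1), while 51.4% of 19063 protein-coding genes had such a region under the same rule. A set 1 region that passed was found at 4 of the 10 genes (48.9% of all coding genes) and a set 2 region at 1 (5.06%). The share of regions that passed and the share of genes with one were thus close to those of the whole table. By set, 8 of 27 set 1 regions at the Notch genes passed, against 34.2% of all set 1 regions, and 2 of 15 set 2 regions, against 9.23% of all set 2 regions. Set 1 held 64.3% of the regions at the Notch genes (49.2% to 77.0%) and 74.5% of all listed regions. The 8 set 1 regions with an FDR under 0.05 were at *HES1*, *NOTCH2*, *DLL4* and *JAG2*, and both set 2 regions were at *DLL1*.

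**Figure D1:**
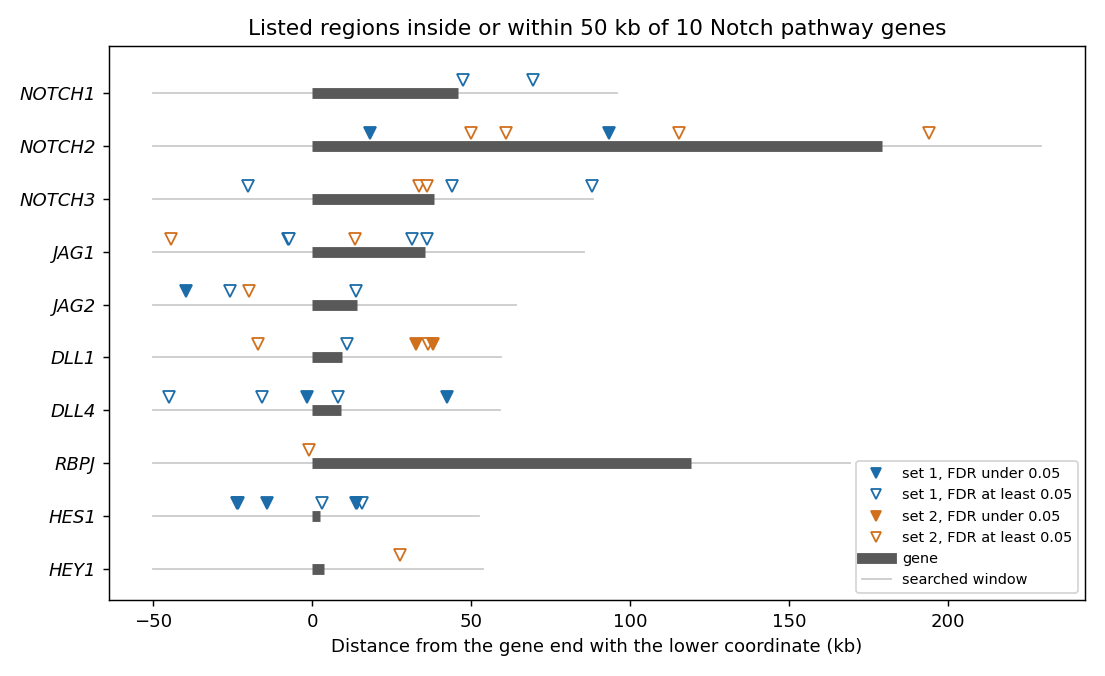
Position of the 42 listed regions at the 10 Notch genes, as the distance in kb of each region's centre from the gene end with the lower coordinate. Grey bars are the genes, thin lines the searched windows of 50 kb either side, and filled triangles the 10 regions with an FDR under 0.05, of which both in orange (set 2) lie at *DLL1*; at *HES1* 2 filled triangles cover open ones beside them.

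Among the receptors, *NOTCH2* had regions with an FDR under 0.05, and *NOTCH1* and *NOTCH3* had none. *NOTCH2* is the longest of the 10 genes (179 kb), so its window is also the widest, and 5 of its 6 listed regions lay inside the gene. From the authors' deposited table, the set 1 region on chromosome 3 at 97265101 to 97265500 showed a fold change of 2.58 (FDR = 0.00318), 85876 bp from the nearer gene end. A second set 1 region inside *NOTCH2*, at 97190101 to 97190500, showed a fold change of 2.85 per the authors' deposited table (FDR = 0.0291) and lay 18328 bp from an end.

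The other 4 regions of *NOTCH2* were in set 2 and did not pass, so regions of both sets lay among each other in 1 gene body. Along the chromosome, the order of the 5 regions inside the gene was set 1, set 2, set 2, set 1 and set 2. By the authors' deposited table, the set 2 fold changes inside *NOTCH2* were 4.69 at 97221701 to 97221900 (FDR = 0.513), 1.56 at 97232701 to 97232900 (FDR = 0.361) and 1.63 at 97287101 to 97287300 (FDR = 0.743). The region at 97365901 to 97366100, 14824 bp outside the gene, was the nearest of the 6 to an end, with a fold change of 3.74 per the authors' deposited table (FDR = 0.408).

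*NOTCH1* had 2 listed regions, both in set 1, both outside the gene and beyond the same end of it, on chromosome 11. Per the authors' deposited table, the region at 103397301 to 103397500, 1678 bp from the end, showed a fold change of 2.05 (FDR = 0.199). The other, at 103419201 to 103419500 and 23628 bp away, had the highest fold change of the 42 regions, 5.50 per the authors' deposited table, but an FDR of 0.0739. Of all set 1 regions 4.21% showed a fold change at least as high, but this region was picked as the highest of the 27 set 1 regions at the Notch genes.

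*NOTCH3*, a receptor also known in vascular smooth muscle, had 5 listed regions on chromosome 7, 3 in set 1 and 2 in set 2. The set 2 regions both lay inside the gene, 2400 bp apart near one end. From the authors' deposited table, they had fold changes of 1.39 at 100792801 to 100793000 (FDR = 0.266) and 1.94 at 100795401 to 100795600 (FDR = 0.137). The set 1 regions all lay outside *NOTCH3* and nearer to other genes. The one inside the epoxide hydrolase gene *EPHX3*, at 100803001 to 100803300, showed a fold change of 2.55 per the authors' deposited table (FDR = 0.0830). Another, at 100738901 to 100739100 on the other side of the gene, had 1.38 (FDR = 0.235) per the authors' deposited table.

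The ligands held 20 of the 42 regions and 5 of the 10 that passed, with 13 regions in set 1 and 7 in set 2. *DLL4*, a ligand of endothelial cells, had 5 regions on chromosome 10, all in set 1. By the authors' deposited table, the region at 66600901 to 66601300 showed a fold change of 1.90 (FDR = 0.00311). It lay 1713 bp outside an end of *DLL4*, with *DLL4* as its nearest gene, and was the only region with an FDR under 0.05 within 3000 bp of an end of any of the 10 genes. The second to pass, at 66644901 to 66645400, showed a fold change of 2.07 per the authors' deposited table (FDR = 0.0255), but lay 33130 bp from *DLL4* and 1838 bp from *VPS18*, a gene for a vesicle tethering subunit.

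Of the other 3 *DLL4* regions, 1 lay inside the gene, 1020 bp from an end, at 66610901 to 66611100, with a fold change of 2.27 per the authors' deposited table (FDR = 0.184). The remaining set 1 regions lay inside neighbouring genes. Per the authors' deposited table, their fold changes were 2.96 inside *CHAC1*, an enzyme that breaks down glutathione (66587101 to 66587300, FDR = 0.146), and 3.22 inside *INO80*, a chromatin remodeller (66557601 to 66557800, FDR = 0.0685). The fold changes of the 2 regions that passed at *DLL4* were thus below those of the 3 that did not.

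*DLL1*, a ligand that mouse mammary stem cells express, had 4 of its 5 regions on chromosome 9 in set 2. From the authors' deposited table, the region at 91394301 to 91394900 showed a fold change of 2.15 with the smallest p of the 42 regions (p = 9.76e-09, FDR = 0.000539), rank 117 of 7830 in set 2. The region at 91399701 to 91400300 showed a fold change of 3.72 per the authors' deposited table (FDR = 0.0290). Both are 600 bp wide and lie inside *FAM120B*, a coactivator gene next to *DLL1*, 23179 and 28579 bp from the nearer end of *DLL1*. Between them lay another set 2 region, at 91398301 to 91398600, with a fold change of 3.54 per the authors' deposited table (FDR = 0.607).

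The 2 regions for which *DLL1* is the nearest gene did not pass and were in different sets. By the authors' deposited table, the set 1 region at 91373101 to 91373300, 1779 bp from an end, showed a fold change of 4.13 (FDR = 0.112). On the other side of the gene, 17074 bp away, the set 2 region at 91344901 to 91345100 had 2.21 (FDR = 0.432) per the authors' deposited table.

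The set 2 regions at *DLL1* continued beyond the 50000 bp window. Within 500 kb of the gene, 7 of 8 listed regions were in set 2, and 3 of them passed, while 33.8% of the 843 listed regions of chromosome 9 were in set 2. Per the authors' deposited table, the one of these outside the window, on chromosome 9 at 91110801 to 91111300, showed a fold change of 7.20 and the smallest p of all set 2 regions (p = 4.08e-28, FDR = 5.37e-21). It lay 251 kb from *DLL1* and 74.4 kb from its nearest protein-coding gene. The region inside *FAM120B* at 91399701 to 91400300 was the last listed region of chromosome 9, although coding genes reach 187 kb beyond *DLL1* on that side. Having 2 or more set 2 regions at an FDR under 0.05 within 50000 bp, a limit chosen after the values of *DLL1* were seen, held for 0.351% of coding genes (67 of 19063), of which *DLL1* is 1.

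**Figure D2:**
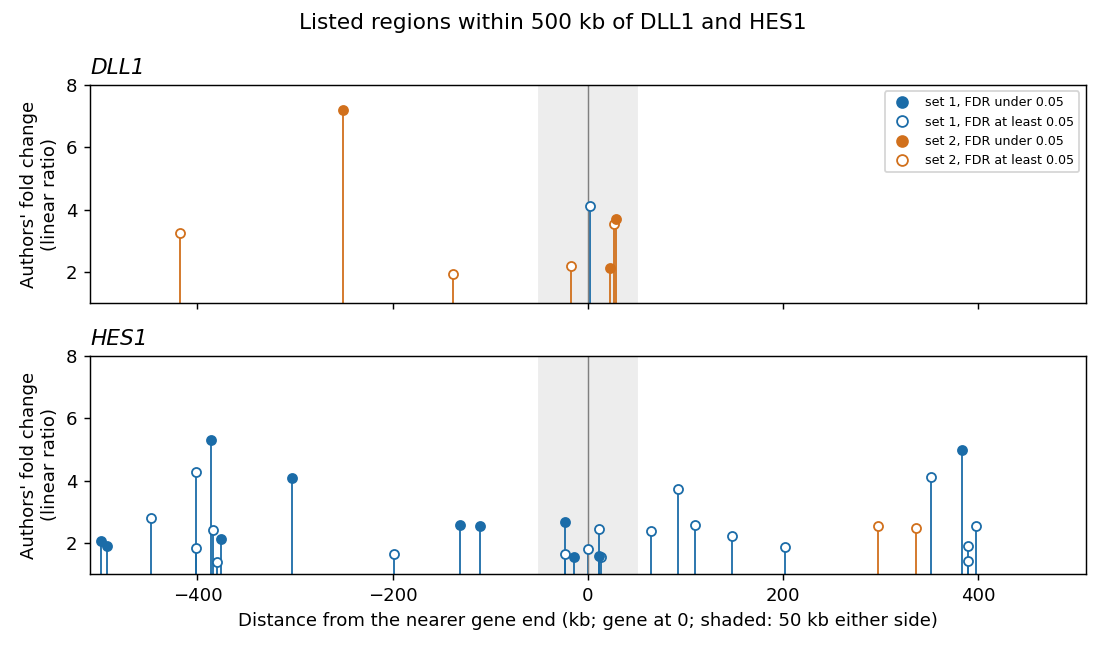
Authors' fold change (linear ratio) of every listed region within 500 kb of *DLL1* (top) and *HES1* (bottom), by distance in kb from the nearer gene end, with set 1 in blue, set 2 in orange and filled points for an FDR under 0.05. Around *DLL1* 7 of 8 regions are in set 2, with the region at a fold change of 7.20 lying 251 kb away, and around *HES1* 30 of 32 are in set 1. On chromosome 1, which holds *HES1*, 32.2% of listed regions are in set 2. Around the other genes, not drawn, set 1 held from 8 of 19 regions (*NOTCH2*) to 47 of 50 (*DLL4*).

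*JAG2* had 4 regions on chromosome 21, of which 1 passed. From the authors' deposited table, this set 1 region, at 68877001 to 68877200, showed a fold change of 3.47 (FDR = 0.0222), but at 39580 bp it was the farthest of the 4 from *JAG2*, and *GPR132*, a receptor gene, was nearer. The region nearest to *JAG2*, at 68930501 to 68930700, lay inside the gene 160 bp from its end, the closest to a gene end of all 42 regions, with a fold change of 2.91 in set 1 of the authors' deposited table (FDR = 0.138). The other 2 regions had fold changes of 4.01 in set 1 (68890801 to 68891000, FDR = 0.196) and 2.99 in set 2 (68896501 to 68897000, FDR = 0.360) per the authors' deposited table.

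*JAG1*, the ligand whose human gene is mutated in Alagille syndrome, had 6 listed regions on chromosome 13, none with an FDR under 0.05, 4 in set 1 and 2 in set 2. By the authors' deposited table, the smallest FDR was 0.0584, for the set 1 region at 3772001 to 3772200, which lay 720 bp outside an end of the gene with a fold change of 1.47. A pair of set 1 regions on the other side, 200 bp apart at 3728201 to 3728400 and 3728601 to 3728800, had fold changes of 2.95 (FDR = 0.193) and 2.88 (FDR = 0.0738) per the authors' deposited table and lay nearer to *SLX4IP* than to *JAG1*. Inside *JAG1* the table lists a region of each set. Their fold changes were 2.55 in set 1 (3767301 to 3767500, FDR = 0.220) and 3.24 in set 2 (3749301 to 3749500, FDR = 0.469) per the authors' deposited table. The sixth region, inside *SLX4IP* at 3691401 to 3691700, was in set 2 with a fold change of 3.00 per the authors' deposited table (FDR = 0.712).

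*HES1*, the repressor that Notch activates in many tissues, had the most listed regions of the 10 genes although it is the shortest (2.52 kb). All 7 were in set 1 and *HES1* was the nearest coding gene to each. They formed 4 groups on chromosome 1, with 2 regions about 23 to 24 kb beyond one end, 1 nearer on the same side, 1 at the other end and 3 beyond that end. On the first side, the authors' deposited table gives fold changes of 2.67 at 73074401 to 73074700 (FDR = 0.00846) and 1.65 at 73074801 to 73075000 (FDR = 0.124), with 100 bp between them. The region at 73083601 to 73084200, 14335 bp from the end, is 600 bp wide and had the smallest FDR at *HES1* (0.00374), with a fold change of 1.54 per the authors' deposited table.

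On the other side of *HES1*, the region closest to the gene lay 449 bp outside its end, at 73101101 to 73101300, with a fold change of 1.81 per the authors' deposited table (FDR = 0.229). About 11 to 13 kb beyond that end, the authors' deposited table lists 3 regions close together. They had fold changes of 1.59 at 73112001 to 73112200 (FDR = 0.0335), 2.45 at 73112401 to 73112600 (FDR = 0.237) and 1.54 at 73113701 to 73114200 (FDR = 0.0918). The median fold change at *HES1* was 1.65, against 2.39 over all set 1 regions. At least 3 set 1 regions with an FDR under 0.05, as at *HES1*, were found at 15.1% of coding genes, and 10.3% of coding genes had 7 or more listed regions that were all in set 1.

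*HEY1*, a repressor related to HES1, and *RBPJ*, the protein that brings the Notch complex to DNA, each had a single listed region, in set 2 and far from the FDR limit. The *HEY1* region, on chromosome 14 at 39116401 to 39116600, lay 23790 bp from the gene with a fold change of 2.13 per the authors' deposited table (FDR = 0.811). The *RBPJ* region, on chromosome 6 at 46190801 to 46191000, lay 936 bp outside an end of the gene. Its fold change of 1.26 per the authors' deposited table (FDR = 0.856) was the lowest of the 42 regions. Of the 7830 set 2 regions, 36 had one as low or lower, this one included. *RBPJ* is the second longest of the 10 genes (119 kb), and no region was listed inside it.

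**Figure D3:**
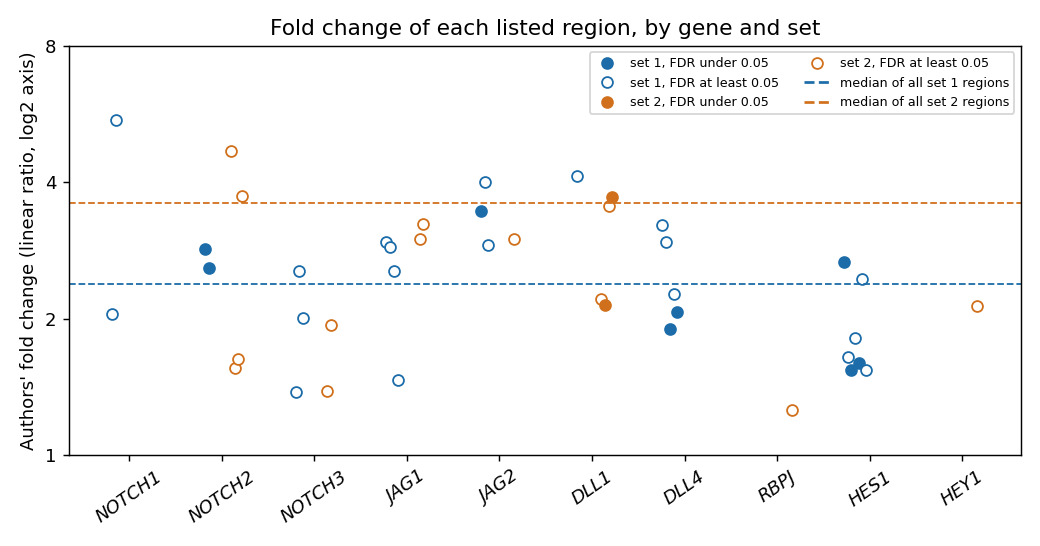
Authors' fold change (linear ratio, on a log2 axis) of each of the 42 listed regions by gene, with set 1 in blue, set 2 in orange and filled points for an FDR under 0.05. Dashed lines are the medians of all listed regions of each set (2.39 and 3.59); 12 of the 15 set 2 points lie below the set 2 line, and the highest point is the *NOTCH1* region at 5.50.

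Seen by gene, 3 of the 10 had listed regions in set 1 only (*NOTCH1*, *DLL4*, *HES1*), 2 in set 2 only (*HEY1*, *RBPJ*) and 5 in both. The number of listed regions per gene had a median of 5 (1 to 7), against 3 (0 to 50) over all coding genes, and the median gene length was 24750 bp for the Notch genes, against 17760 bp over all coding genes. Per length of window the density was 6.83 regions per 100 kb at *HES1*, against 0.847 over the listed span of chromosome 1. It was 4.58 at *DLL4*, 4.57 at *DLL1* and 4.43 at *JAG1*, against 1.39, 0.924 and 1.43 on their chromosomes. At *RBPJ* it was 0.456, below the 0.715 of chromosome 6, and at *NOTCH1* 1.37, against 1.40 for chromosome 11. These 2 were the only genes of the 10 below their chromosome. Chromosome values include gene deserts.

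**Figure D4:**
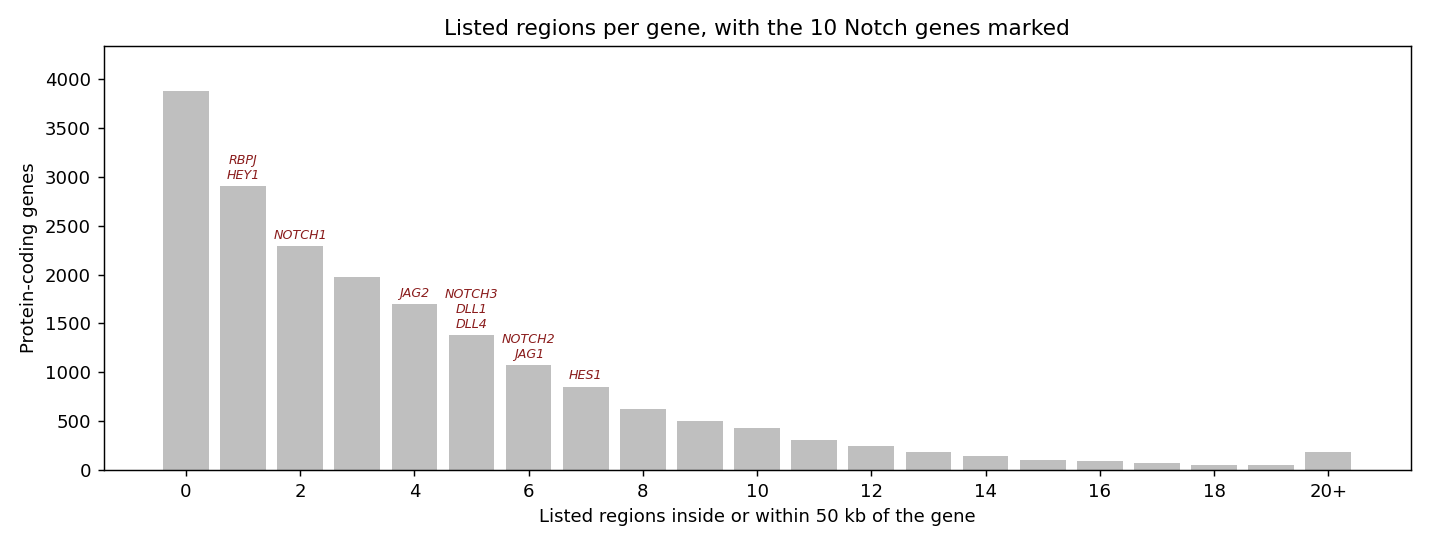
Number of listed regions inside or within 50 kb of each of 19063 protein-coding genes (grey bars, with 20 or more pooled), with the 10 Notch genes written above the bar of their own count. *HES1* with 7 is the highest of the 10, and *HEY1* and *RBPJ* with 1 are the lowest.

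The set 2 regions at the Notch genes had a median fold change of 2.21, against 3.59 over all set 2 regions, and 8 of 15 lay below the lower quartile of the set (2.67). In set 1 the median was 2.55 at the Notch genes, against 2.39 over all set 1 regions. Position moves with fold change in both sets. Over the whole table the set 2 median was 2.78 within 3000 bp of a coding gene end and 3.73 outside genes farther away. In set 1 these medians were 2.18 and 2.57. At the Notch genes, the set 2 median was 1.60 for the 2 regions within 3000 bp of the gene's end. It was 1.78 for the 6 inside the gene, with a *NOTCH3* region counted in both. The 8 set 2 regions outside their Notch gene and over 3000 bp from its ends had a median of 3.00. Some of these lay inside other coding genes, as in *FAM120B*, so the 8 match no single class of the whole table. The whole-table set 2 median was 3.68 inside coding genes and over 3000 bp from an end, near the 3.73 outside them. The lower set 2 median at the Notch genes and the part of position in it were not tested.

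**Figure D5:**
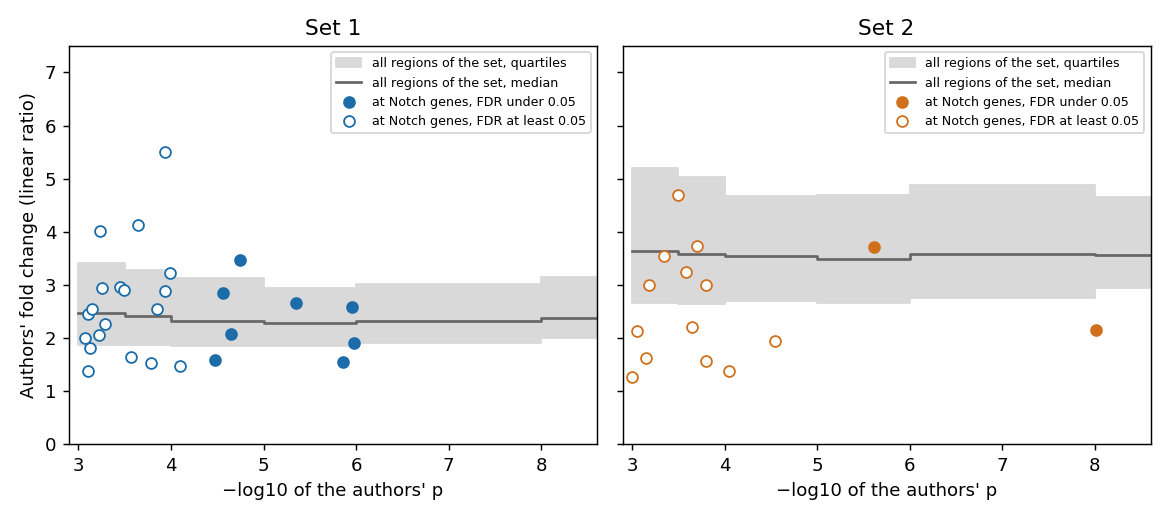
Authors' fold change (linear ratio) against −log10 of the authors' p for the regions at the Notch genes (points, filled where the FDR is under 0.05), with set 1 on the left and set 2 on the right; grey bands and lines are the quartiles and median of all listed regions of the set in each range of p. In set 2 the points fall mostly below the grey line of 3.48 to 3.63, and in set 1 they scatter around it.

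At stricter limits, 5 of the 42 regions had an FDR under 0.01, against 13.1% of all listed regions, and 6 had an unadjusted p under 1e-05, against 17%. The fold change did not order the regions as the FDR did. The 10 regions with an FDR under 0.05 had fold changes of 1.54 to 3.72 and a median width of 400 bp, the same median width as all listed regions that passed. Of all 42 regions, 66.7% had the smallest width in the table, 200 bp, against 48.6% of all listed regions. The FDR limit also differed between the sets, since the highest authors' p-value that still passed was 6.21e-05 in set 1 and 5.63e-06 in set 2. The *NOTCH3* region at 100795401 to 100795600 had a p-value of 2.83e-05 per the authors' deposited table, low enough to pass in set 1, but an FDR of 0.137 in set 2. With both *DLL1* regions, it was 1 of 3 set 2 regions at the Notch genes under the set 1 limit.

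The window and neighbouring genes decide part of these counts. For 13 of the 42 regions another coding gene was nearer than the Notch gene, among them 4 of the 10 that passed, including both *DLL1* regions. Of the regions described above, the farthest inside the window was that of *DLL4* in *INO80*, 45113 bp away. Just outside lay a set 1 region 51313 bp from *DLL4*, on chromosome 10 at 66551401 to 66551600, with a fold change of 2.79 per the authors' deposited table (FDR = 0.139). For 4 of the 5 genes without a region that passed, the nearest one lay within 100 kb. Per the authors' deposited table, it was a set 1 region 57.6 kb from *HEY1* (chromosome 14, 39150101 to 39150600, fold change of 4.01, FDR = 0.0405). For *NOTCH1* it was a set 1 region 58.0 kb away (fold change of 3.28 per the authors' deposited table, FDR = 0.0313), for *JAG1* a set 2 region 83.4 kb away (3.40, FDR = 0.0245) and for *NOTCH3* a set 1 region 84.2 kb away (2.51, FDR = 0.000662). At *RBPJ* the nearest was 127 kb away.

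Of 46 other genes of the pathway, 33 (71.7%) had a region with an FDR under 0.05 within the same window, against the 51.4% of all coding genes. These genes also had more listed regions each, a median of 5.5 against 3 over all coding genes. Of the 285 listed regions in their windows, 240 in set 1 and 45 in set 2, 84 passed (29.5%), close to the 27.8% of all listed regions. In 28 of the 33 genes (84.8%) all regions that passed were in set 1, against 90.2% of all coding genes with such a region. In the other 5 (*DLL3*, *ADAM17*, *MAML2*, *MAML3* and *NEURL1*), or 15.2%, they were in both sets, against 4.92% of all coding genes with such a region. In 0 they were in set 2 alone, which held for 483 of the 9802 coding genes with such a region. These differences were not tested. The smallest FDRs in set 1 of the authors' deposited table belonged to *MAML3*, a Mastermind coactivator (fold change of 2.68, FDR = 1.49e-07), *SPEN*, a corepressor of RBPJ (4.03, FDR = 2.67e-06), and *LFNG*, a fringe glycosyltransferase that modifies Notch receptors (1.85, FDR = 1.29e-05). All 3 regions lie outside the gene, at 35857 bp from *MAML3*, 8391 bp from *SPEN* and 39019 bp from *LFNG*, and other genes lie nearer to the last 2, *GRIFIN* in the case of *LFNG*. In set 2 the smallest FDRs of the authors' deposited table were those of *ADAM17*, a protease of cell surface proteins, from a region inside the gene (fold change of 2.52, FDR = 0.00191), *DLL3*, from a region nearest to *EID2* (2.04, FDR = 0.00356), and *MAML3*, from a second region, inside the gene (8.25, FDR = 0.0252).

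Since several Notch genes are also used by endothelial cells, short marker lists were read beside them. Over all coding genes, 51.4% had a region that passed and 46.4% had such regions in set 1 only, and set 1 held 74.5% of all listed regions. All 6 luminal markers had regions with an FDR under 0.05, in set 1 only, and their windows held 26 listed regions in set 1 and 4 in set 2, each counted once, since the windows of *KRT8* and *KRT18* overlap. Of 6 basal markers 3 had such a region, all in set 1, among 12 listed regions in set 1 and 14 in set 2. Of 6 endothelial markers 4 had one, in set 1 only for *PECAM1*, in set 2 only for *TEK* and in both for *CDH5* and *VWF*, among 13 listed regions in set 1 and 7 in set 2. The part of cell type shares in the Notch regions was not tested.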

How the data were processed

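The analysis used 1 table of 30714 regions from the ATAC-seq comparison of 3 lactation libraries (replicates 1, 2 and 5) and 3 dry period libraries (replicates 1, 2 and 3). Bowtie2 2.2.5 and MACS2 appear in the submitters' processing notes, without a role. The program behind the differential regions, its filters and the genome build are not stated in the labels or headers. Per the file headers, the authors deposited a linear fold change (a ratio), a p-value and a Benjamini-Hochberg FDR (a q-value) per region. The deposited signal score had a median ratio to the fold change of 32.0 in set 1 and 20.4 in set 2, and was not used. Width and position, another unit per the file headers, are in bp. Positions are printed counted from 1.

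Gene names, lengths and distances came from RefSeq genes of assembly ARS1.2, which has no strand here, so starts, exons and introns were not separated and gene coordinates are not printed. All 10 symbols matched. As a check of positions, the share of regions closer than 1000 bp to a gene end was highest with the genes of the same chromosome for 29 of 29 chromosomes, and fell after a shift of 50000 or 100000 bp for 29 of 29. The 736 regions on unplaced sequences were not assigned. Assignment of regions was tested on 3000 simulated regions, all assigned as placed.

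No test across libraries could be made. Tests are the authors', and counts were set beside those of all listed regions or coding genes with Python 3.11.15 and pandas 2.3.3. Members and lists were chosen with earlier results of these data known. Named were all 10 genes with their listed regions, of which 1 is counted but not reported here, and the 3 other pathway genes per set with the smallest FDR. Windows, thresholds and nearest-gene assignment were varied. No DNA or protein sequence was used here.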

Additional observations from a re-analysis of the deposited data

How the results depend on the processing

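Counts followed the window. Within 10000 bp there were 20 listed regions, 3 with an FDR under 0.05, at 2 genes (*DLL4* and *NOTCH2*). Within 100000 bp there were 72, of which 23 passed, at 9 genes. Over all listed regions 27.8% passed, whatever the window. The 51.4% of coding genes with such a region holds for 50000 bp only, and that share was not computed for the other windows. Inside the genes alone there were 11, of which 2 passed, at 1 gene (*NOTCH2*), with 45.5% in set 1. With regions kept only where the Notch gene was the nearest coding gene, 6 passed, at 3 genes, and *DLL1* and *JAG2* were no longer among them. At an FDR under 0.01 there were 5 regions, and at an unadjusted p under 1e-05 there were 6. Set 1 held 80.0% of the regions with an FDR under 0.05. The counts rise or fall with a wider, narrower or stricter choice by construction. The window does not fix the set 1 share in this way. It was 65.0% within 10000 bp, 64.3% with the main choice, 73.6% within 100000 bp and 45.5% inside the genes. Over the whole table, 6900 set 1 and 3586 set 2 regions lay inside a coding gene and over 3000 bp from an end. The FDR limit raised the set 1 share over the whole table as well, from 74.5% of all listed regions to 91.5% of those that passed. At the Notch genes it went from 64.3% to 80.0%. These shifts were not tested. Counting any overlap in place of the centre left all 4 counts and shares as they were. Over the window and FDR choices the median fold change ran from 2.33 to 2.58 in set 1. In set 2 it ran from 1.63 to 2.99, with 2.21 under the main choice, so the set 2 median depended on the window. Each move was less than 1 SD over single regions, which does not measure the error of a median.

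No paired analysis was possible because the table holds no value per library, and leaving out single libraries could not be run for the same reason. Depth per library is unknown, so a gene without a listed region cannot be told from one with too few reads to list it.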

Other observations

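Groups within the 46 other pathway genes were formed after their values were seen. All 8 further target genes (*HES2*, *HES4*, *HES5*, *HES6*, *HES7*, *HEY2*, *HEYL* and *NRARP*) had a region with an FDR under 0.05, and all 18 of these regions were in set 1. They were 18 of 61 listed regions (29.5%, against 27.8% of all listed regions), and 91.5% of all regions that passed were in set 1, so the shares of regions lie near those of the whole table. The authors' deposited table gives the highest fold change among their smallest-p regions to *HES5*, at 6.63 (FDR = 0.0192), and the nearest coding gene of that region was *FAM213B*. For each of the 8 target genes the smallest-p region lay outside the gene and nearer to another coding gene. For the rest these were *ACOT7* (*HES2*), *AGRN* (*HES4*), *ILKAP* (*HES6*), *PER1* (*HES7*), *NCOA7* (*HEY2*), *HPCAL4* (*HEYL*) and *NOXA1* (*NRARP*). Their distances from the target gene ran from 13179 bp (*HES7*) to 49946 bp (*HEYL*). All 3 fringe genes had regions that passed, 6 in set 1 and 0 in set 2, against 51.4% of all coding genes with such a region. All 3 Mastermind genes had them as well, 8 in set 1 and 2 in set 2, as did the proteases *ADAM10* and *ADAM17*, with 4 in set 1 and 1 in set 2. Of 4 Deltex genes 2 had them, 8 in set 1 and 0 in set 2. Of the gamma-secretase subunits, *APH1A*, *APH1B* and *PSENEN* had such regions, 4 in set 1 and 0 in set 2, and *NCSTN* had no listed region at all. At the catalytic subunit *PSEN2* the smallest-p region was in set 2 of the authors' deposited table, at a fold change of 6.25 (FDR = 0.249). Of 17 listed regions at the fringe genes 35.3% passed, of 30 at the Mastermind genes 33.3% and of 14 at the ADAM genes 35.7%. Of 24 at the Deltex genes 33.3% passed and of 25 at the gamma-secretase genes 16.0%, against 27.8% of all listed regions. These groups were not tested against other genes.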
